A study of Homo sapiens with 8 samples.

Results

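C3, SLC2A1 and SGK223 are 3 human genes that carried some of the most enriched domains of the histone mark H3K36me3, a trimethylated lysine of histone H3, in control HepG2 cells, while no peak was called over those domains in SETD2 knockdown cells. They were chosen by 2 values of these data: a high fold enrichment in the control peak list, and the absence of a peak over the same domain in the knockdown list. Both values are therefore given as a description, with no test. By the rule, a peak belonged to a gene when it overlapped the gene's hg19 span by at least 1 bp, and a flank of 50 kb was added on each side. The spans held 3 of the 23488 peaks of the knockdown list and 4 of the 35375 peaks of the control list. With the flanks the numbers were 5 and 7.

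HepG2 is a human hepatocellular carcinoma line. It stably expressed a short hairpin RNA (shRNA), delivered by lentivirus and selected with puromycin, that was directed either against SETD2 or against no specific target. H3K36me3 immunoprecipitate and input DNA were sequenced from the knockdown cells and from the control cells, with 2 replicates in each of the 4 groups. Both replicates of a group had been merged before peaks were called, so each condition had 1 peak list. Replicate error is not known and the conditions could not be tested against each other. The merged immunoprecipitates held 67053273 tags in the knockdown and 47880817 in the control after duplicates were removed. The lists hold values only for called peaks. A stretch with no peak is not a stretch with no tags, and its tag number was not analysed here.

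SETD2 is the enzyme that adds the third methyl group to H3K36 in human cells. It travels with elongating RNA polymerase II, so the mark lies over the bodies of transcribed genes and usually builds up towards their ends. C3 encodes complement component C3, the plasma protein on which the complement pathways converge, and the liver is its main source. SLC2A1 encodes GLUT1, a glucose transporter of the plasma membrane that many tumour cells use. SGK223, now named PRAG1, encodes pragmin, a pseudokinase that acts as a scaffold in signalling from the cell membrane.

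The SLC2A1 domain began close to the start of the gene's hg19 span, so a promoter sequence of the gene is shown. It is the RefSeq promoter entry (GRCh38.p14, chr1:42958819-42959118, minus strand), from 250 bases before the annotated start to 50 after it. The annotated start of the entry was not placed on the hg19 span, so the positions below refer to the entry alone. Of the 3 genes, 1 matched an entry of the promoter table. Capitals mark the letters of a TATA box, a CCAAT box and GC boxes, searched on both strands.
SLC2A1: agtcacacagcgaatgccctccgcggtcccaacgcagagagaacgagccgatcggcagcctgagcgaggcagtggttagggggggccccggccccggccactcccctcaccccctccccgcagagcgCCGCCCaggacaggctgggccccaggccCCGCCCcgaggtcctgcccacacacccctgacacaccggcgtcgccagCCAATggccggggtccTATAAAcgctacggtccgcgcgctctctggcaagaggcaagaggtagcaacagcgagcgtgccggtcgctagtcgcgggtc
The single TATAAA lay from 31 to 26 bases before the start, and 11.5% of the 35116 promoters in the table held one. The single CCAAT lay from 47 to 43 bases before it, against 34.6% of promoters with one. GGGCGG was found 2 times, both on the other strand (printed as CCGCCC), and 44.95% of promoters held at least 1. No match overlapped another, and CACGTG, the letters of a common E-box, had 0 matches here and was in 7.26% of promoters. The promoter had a GC content of 71% and 30 CG pairs, against medians of 58.7% and 14 over the table. These matches describe letters and not bound sites.

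Over C3 (chr19:6677846-6720662), peaks covered 43.2% of the gene in the knockdown and 99.7% in the control. C3 lies on the minus strand, so its start is at the higher coordinate. In the control, 2 adjoining domains 122 bp apart spanned the gene. The domain over the end of the gene was 26.7 kb wide (chr19:6673652-6700359) and held 7617 tags. Its tag density, in tags per kb per 1000000 filtered tags, was 5.96 (exact Poisson 95% interval 5.82 to 6.09, counting error only). The domain over the start (chr19:6700482-6720772) was 20.3 kb wide and held 4771 tags at a density of 4.91 (4.77 to 5.05). The end domain was thus the denser of the 2 in the control, beyond counting error, but it had been chosen for its high fold enrichment. It also reached 4194 bp past the end of the gene, so its density is not that of C3 alone.

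In the knockdown, peaks were called over the start domain of C3 and over none of the end domain. From the start of the gene inwards, the 3 knockdown peaks had densities of 1.69 (1.55 to 1.85), 1.16 (1.08 to 1.25) and 1.22 (1.09 to 1.36). They were 4.41, 10.3 and 3.81 kb wide, held 500, 801 and 312 tags, and were separated by gaps of 373 and 681 bp. Together they covered 91.1% of the start domain. The called stretch ran from 392 bp inside the start of the gene to 19.9 kb into it. It stopped 370 bp before the end domain, so the last 22.9 kb of the gene had no knockdown peak. The call in the knockdown therefore broke off close to where the control list divides the gene into 2 domains.

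The C3 start domain is the stretch over the 3 genes where both lists give a density. The knockdown peaks had 1.30 tags per kb per 1000000 (1.24 to 1.37), against 4.91 in the control, a log2 ratio of knockdown over control of -1.92 (exact conditional binomial 95% interval -1.998 to -1.83, comparing 2 pooled libraries and not the conditions). Taken over the whole control domain, the tags of the called knockdown peaks gave 1.19, a lower bound, since tags between the peaks are not listed. No background was taken off these densities. Of the 13963 control peaks with a knockdown peak over them, 97.0% had the lower density in the knockdown. Their median log2 ratio was -0.66 (quartiles -0.86 and -0.44), and 11 of them, this domain included, were at or below -1.92. Among the 211 with a fold enrichment at least that of the C3 start domain (21.79), the ratios ran from -1.92 to -0.24 with a median of -1.06. The C3 start domain had the lowest ratio of those 211. At that fold enrichment or above there were 232 control peaks, of which 21 had no knockdown peak and so no ratio. C3 was also chosen for the missing call over its adjoining end domain, so this place is not independent of the choice.

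Fold enrichment, the authors' own ratio of immunoprecipitate over the local input background, ranks peaks only within a list. In the knockdown list the 3 C3 peaks had fold enrichments of 4.80, 6.13 and 7.26 from the start inwards. Their false discovery rates (FDR), which the caller derives by exchanging immunoprecipitate and input, were 17.4%, 10.1% and 11.2%. At an FDR of 5% or less none of the 3 remained, and the covered share of C3 in the knockdown was then 0%. That limit was met by only 1244 of all 23488 knockdown peaks, against 17856 of all 35375 control peaks, so the loss is not particular to C3. Both control domains of C3 had an FDR of 0%.

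Over SLC2A1 (chr1:43391046-43424847), no peak was called in the knockdown, and 1 control domain covered 100% of the gene. The control domain (chr1:43390718-43424984) was 34.3 kb wide and held 8848 tags at a density of 5.39 (5.28 to 5.51). It followed the bounds of the gene closely, reaching 137 bp past the start and 328 bp past the end. Its highest point lay 28.3 kb from the start and 5.55 kb from the end, in the part of the gene where the mark is usually strongest. Neither list held another peak within 50 kb of the gene, so the domain stood alone between the neighbouring genes ZNF691 and CFAP144 (neighbours as in GRCh38.p14). The nearest knockdown peaks were 146 kb from the domain on the side of lower coordinates and 204 kb on the other side.

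Over SGK223 (chr8:8175258-8239257), no peak was called in the knockdown either, and 1 control domain covered 100% of the gene. The control domain (chr8:8174211-8243926) was 69.7 kb wide and held 14458 tags at a density of 4.33 (4.26 to 4.40). It reached 4669 bp past the start and 1047 bp past the end. Unlike in SLC2A1, its highest point was near the start, 4.19 kb into the gene and 59.8 kb from the end. It was both the widest domain and the one with the most tags among the 1547 control peaks on chromosome 8. The nearest knockdown peaks were 407 kb and 1581 kb from the domain, so the region without a knockdown peak was far longer than the gene. On the nearer side that peak began at chr8:8650706 and the next control peak at chr8:8640690. Most of the stretch between was therefore without a control peak too. On the other side the control list held peaks within 500 kb, at densities of 0.906 to 1.15.

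The 3 domains without a knockdown peak differed less in density than in size. In tag density C3 (5.96) lay above SLC2A1 (5.39), which lay above SGK223 (4.33), and none of the 3 intervals overlapped. In width the order was reversed, with 69.7 kb for SGK223, 34.3 kb for SLC2A1 and 26.7 kb for the C3 end domain. All 3 shared a score of 3100, where the score is the caller's p-value as a negative log10, times 10. That score was given to 96 knockdown and 1318 control peaks and does not order them.

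**Figure D1:**
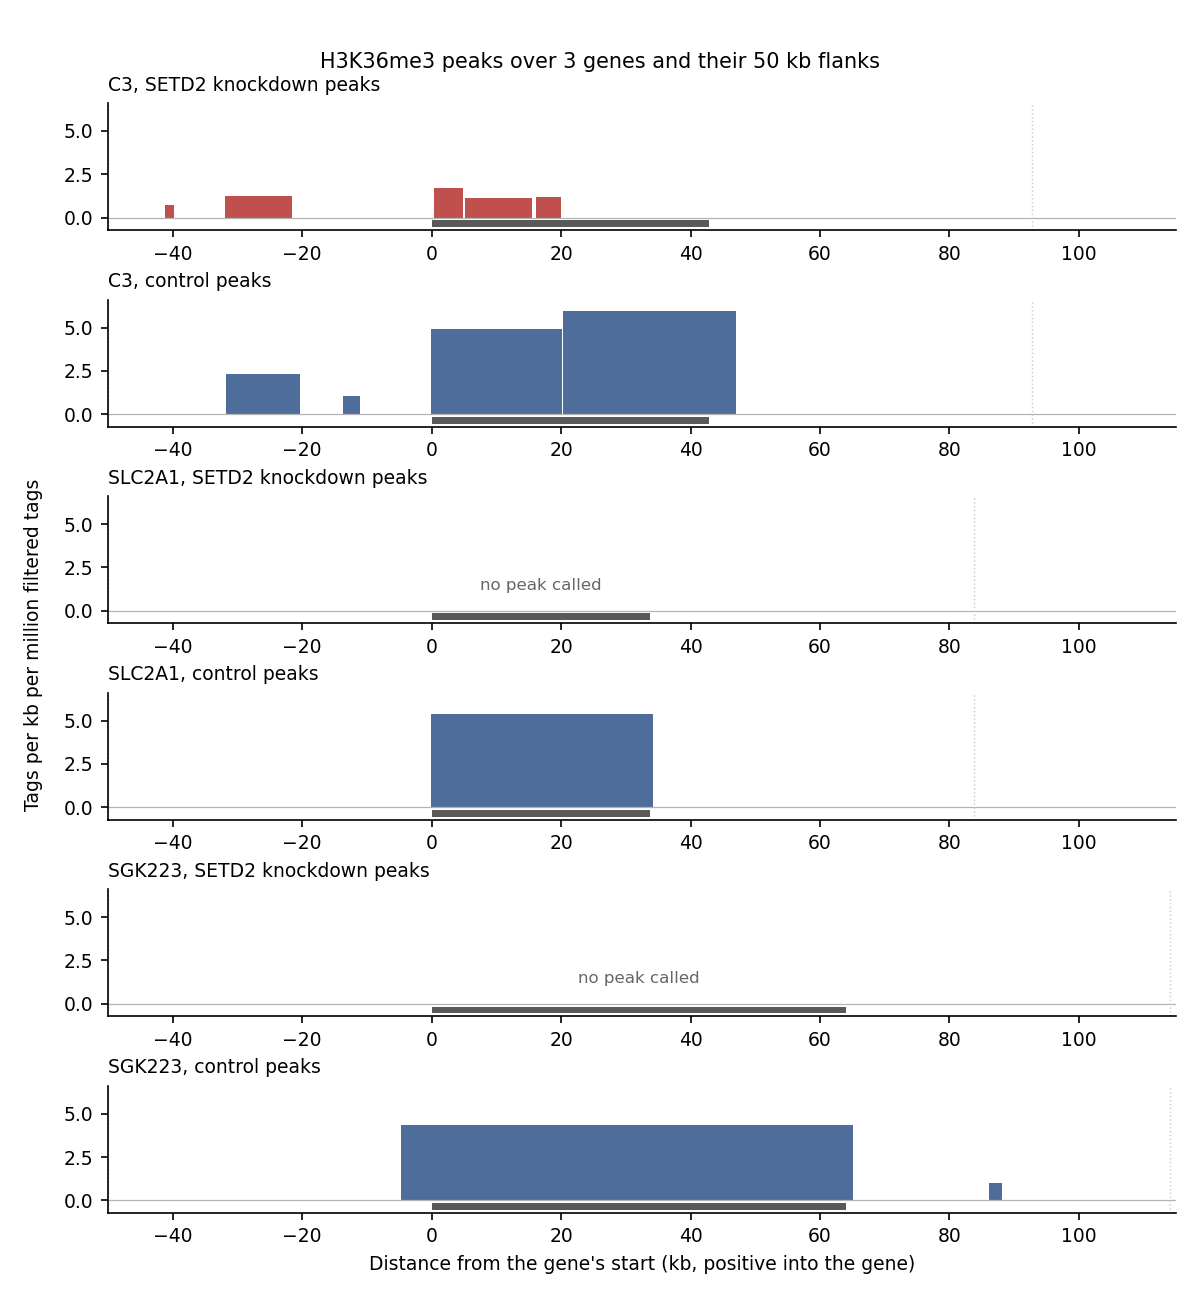
Peaks of the SETD2 knockdown list (red) and the control list (blue) over C3, SLC2A1 and SGK223 (grey bars) and their 50 kb flanks (dotted lines). The horizontal axis is the distance from the gene's start in kb, and the height of a peak is its mean tag density in tags per kb per 1000000 filtered tags. Knockdown peaks lie over the first 19.9 kb of C3 with densities of 1.16 to 1.69, and SLC2A1 and SGK223 have none, while the control domains reach 4.33 to 5.96.

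In the flanks of the 3 genes there were 2 knockdown peaks and 3 control peaks. All but 1 of these 5 lay before the start of C3, on the side of its neighbour GPR108 (as in GRCh38.p14). A control peak at chr19:6740961-6752474 had a density of 2.31 (2.18 to 2.44), and the knockdown peak over it (chr19:6742234-6752613) had 1.26 (1.18 to 1.35). Their log2 ratio of -0.87 (-0.996 to -0.75) was closer to 0 than the -1.92 of the C3 start domain, and the 2 intervals did not overlap. A further knockdown peak at chr19:6760410-6761855 had no control peak over it, as did 17.0% of all knockdown peaks, and its FDR was 87.0%. A control peak 2.60 kb wide near C3 and one 2.01 kb wide past the end of SGK223 had densities of 1.04 and 0.988 and no knockdown peak.

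The 3 domains stood near the top of the control list. Ranked on fold enrichment, the C3 end domain ranked 9 of 35375 (32.22), SGK223 ranked 32 (28.42) and SLC2A1 ranked 47 (26.94). By tag density the ranks were 76, 317 and 119. The C3 start domain, which had knockdown peaks, ranked 232 by fold enrichment and 192 by tag density. Over the 3 genes 3 of 4 control peaks had no knockdown peak, against 60.5% of all control peaks, and since the rule used this absence nothing is read from that count.

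Just inside the choice was SLC2A1, and just outside it were control domains at chr1:16449239-16481657 (fold enrichment 26.28, density 4.22) and chr16:70558398-70610182 (25.81, density 7.86). Neither had a knockdown peak. The other 44 control peaks at or above the 26.94 of SLC2A1 all had one (0.00% without), which follows from how the 3 genes were picked. Over those 44, knockdown peaks covered a median of 92.5% of the control peak, and their densities ran from 1.14 to 5.29 with a median of 2.04. The knockdown peaks over the C3 start domain, at 1.30, were at the low side of that range.

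The share of control peaks with a knockdown peak rose and then fell with the number of tags in the control peak, a split chosen after the data were seen. It was 14.8% at up to 200 tags and 91.8% (exact Clopper-Pearson 95% interval 89.9 to 93.5%) above 2000 and up to 3000 tags. Above 3000 and up to 5000 tags, the class of the C3 start domain, it was 84.9% (82.1 to 87.3%). Above 7500 and up to 10000 tags, the class of SLC2A1 and the C3 end domain, it was 60.4% (49.9 to 70.3%), and above 10000 and up to 15000 tags, the class of SGK223, it was 48.1% (34.0 to 62.4%). Above 15000 tags 7 of 20 control peaks had a knockdown peak. In the tag classes of the 3 domains without a call, a knockdown peak was missing from 39.6% and 51.9% of control peaks. Those counts include the 3 domains, and over all control peaks 60.5% had none.

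By fold enrichment the share did not fall steadily. It was 91.98% (90.9 to 92.95%) at fold enrichments above 10 and up to 15, 86.6% (84.3 to 88.7%) up to 20, 91.6% (87.7 to 94.6%) up to 25, and 90% (81.9 to 95.3%) above 25. Among control peaks with a fold enrichment above 25, 98.6% (92.4 to 99.96%) of the 71 with up to 7500 tags had a knockdown peak. Of the 19 with more tags, 11 had one (57.9%, 33.5 to 79.7%), and leaving out the C3, SLC2A1 and SGK223 domains it was 11 of 16. Tag number moved with the absence of a knockdown peak at these genes, and its part in that absence was not tested. Without tag numbers outside the called peaks, a domain with too little signal and one that the caller did not report cannot be told apart, so a covered share of 0% in the knockdown describes calls and not the level of the mark.

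**Figure D2:**
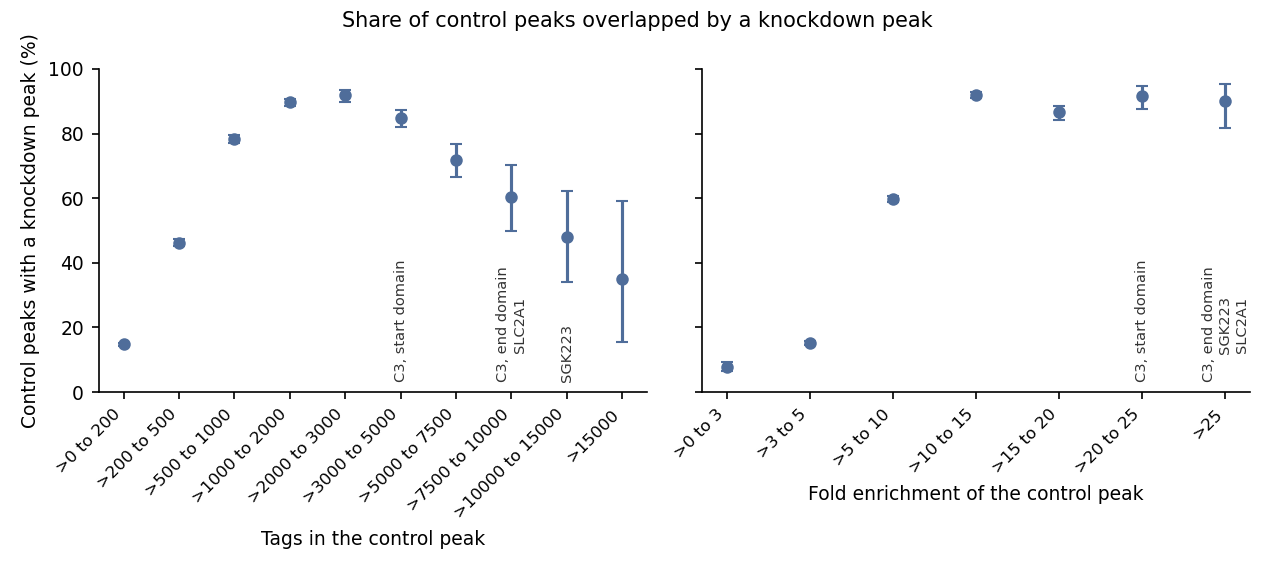
Share of control peaks overlapped by a knockdown peak (%), by tags in the control peak (left) and by its fold enrichment (right), with exact 95% binomial intervals as bars. Vertical labels give the classes of the control domains over the 3 genes. The share peaks at 91.8% above 2000 and up to 3000 tags and is 60.4% and 48.1% in the classes of the domains without a knockdown peak, while it is 90% above a fold enrichment of 25.

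Wide and dense control domains were mostly either called over most of their length in the knockdown or not at all. With limits of 20 kb and a density of 4, chosen after the data were seen, there were 173 such domains, among them all 4 over the 3 genes. A knockdown peak was missing from 80, covered under 50% of 12, and covered 50% or more of 81. The 80 domains without a knockdown peak had a median of 9238 tags and a median width of 37.4 kb, against 6635 tags and 28.3 kb for the 93 with one. Median densities were 4.82 for those without a knockdown peak and 4.75 for those with one. Of the domains without a knockdown peak, 51 of 80 held more than 7500 tags, against 34 of 93 of the others.

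Few knockdown peaks were as wide as these domains, and those that were had lower densities than the domains, as did most control peaks of such width. At least as wide as the C3 end domain were 94 knockdown peaks and 1120 control peaks, and the 94 had densities from 1.15 to 3.22 with a median of 1.72. The 1120 ran from 1.27 to 13.3 with a median of 2.50. At least as wide as the SLC2A1 domain were 17 knockdown peaks and 574 control peaks, and the 17 had densities from 1.42 to 3.22 with a median of 2.11. In the broader class of 0.5 to 2 times the width, which holds narrower peaks too, there were 1091 knockdown peaks for the C3 end domain (0.936 to 5.13, median 1.41), 544 for SLC2A1 (0.985 to 4.40, median 1.48) and 16 for SGK223 (1.42 to 3.22, median 2.07). No knockdown peak was as wide as the SGK223 domain, since the widest measured 48.7 kb, whereas 25 control peaks were at least that wide. The highest tag number of a knockdown peak was 8905, and 19 knockdown peaks and 477 control peaks held more than 5000 tags.

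**Figure D3:**
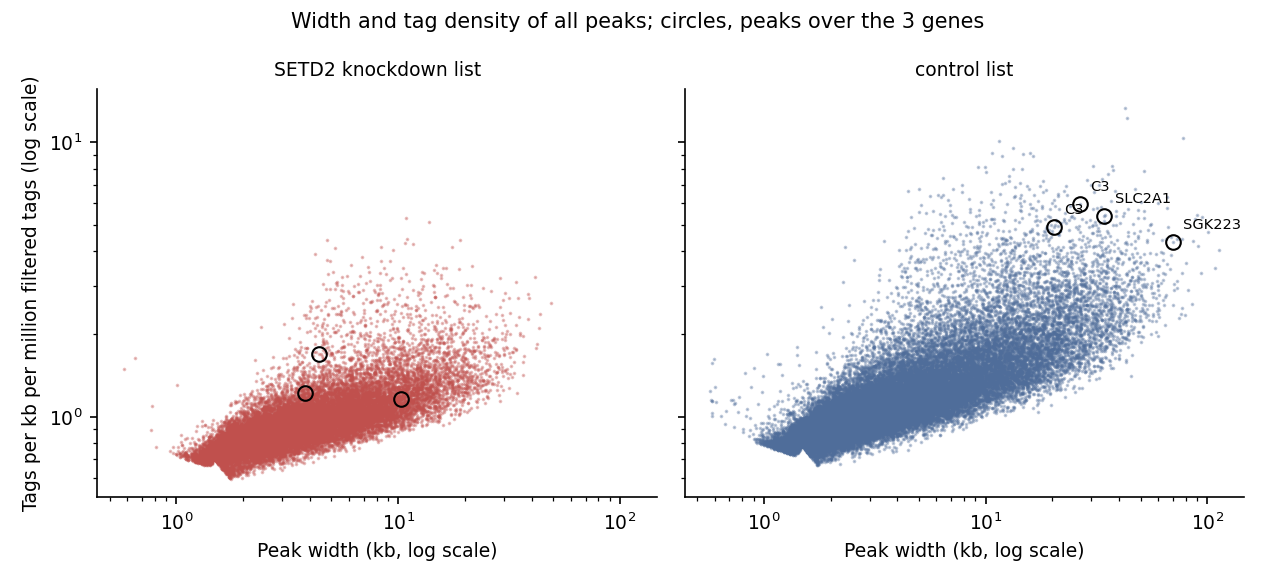
Width (kb, log scale) and tag density (tags per kb per 1000000 filtered tags, log scale) of every peak in the SETD2 knockdown list (left) and the control list (right), with circles around the peaks over C3, SLC2A1 and SGK223. The 3 circled knockdown peaks, all over C3, are 3.81 to 10.3 kb wide, and the 4 circled control domains are 20.3 to 69.7 kb wide at densities of 4.33 to 5.96.

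Control peaks around each gene had lower tag densities than those over it, though not always a lower fold enrichment, and some had a knockdown peak. Within 500 kb of SLC2A1, its own domain left out, 12 of 22 control peaks had a knockdown peak (54.5%, 32.2 to 75.6%). The share was 53.1% among all control peaks on chromosome 1 and 39.5% in the whole list. Those 12 had control densities of 1.11 to 2.93, all below the 5.39 of the SLC2A1 domain. The knockdown peaks over them had densities of 0.682 to 1.79. The densest neighbour, at chr1:43847746-43854477, had 1.79 (1.66 to 1.94) in the knockdown and 2.93 (2.75 to 3.12) in the control. Around SLC2A1, 12 less dense control peaks had a knockdown peak while the densest had none. SLC2A1 was chosen for a strong control domain without a knockdown peak, so this contrast follows largely from the choice.

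Within 500 kb of C3, its own domains left out, 16 of 25 control peaks had a knockdown peak (64.0%, 42.5 to 82.0%). The control densities of the 16 were 0.974 to 4.72, against 5.96 for the C3 end domain. The densest, at chr19:7070318-7086120, had a fold enrichment of 28.16, between those of both C3 domains, but was narrower, at 15.8 kb with 3572 tags. Its density was 2.13 (2.04 to 2.23) in the knockdown and 4.72 (4.57 to 4.88) in the control, a log2 ratio of -1.15, and 91.98% of it was covered. The 9 neighbours without a knockdown peak had control densities of 0.747 to 1.04.

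Within 500 kb of SGK223, its own domain left out, 2 of 15 control peaks had a knockdown peak (13.3%, 1.66 to 40.5%). The share was 42.9% among all control peaks on chromosome 8 and 39.5% in the whole list. The interval takes neighbouring peaks as separate trials, so it is no test against those shares. These 15 neighbours held up to 597 tags. Among all control peaks the share was 14.8% at up to 200 tags and 46.3% above 200 and up to 500. Above 500 and up to 1000 tags it was 78.3%. Knockdown peaks covered 5.82 kb against 52.7 kb in the control. All 15 were less dense than the gene's own domain, with control densities of 0.808 to 1.67. Both control peaks with a knockdown peak were the densest of the 15, at 1.45 and 1.67. The SGK223 domain was 2.60 times as dense as its densest neighbour, SLC2A1 1.84 times and the C3 end domain 1.26 times.

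Where neighbours had peaks in both lists, the density was lower in the knockdown in each of the 30 control peaks concerned, close to the 97.0% of all such control peaks. The median log2 ratio was -0.70 around C3, -0.60 around SLC2A1 and -0.70 around SGK223, close to the -0.66 of all control peaks with a knockdown peak. The lowest were -1.15, -1.17 and -0.99. None of these neighbours reached the -1.92 of the C3 start domain, but most could not have done so. A ratio exists only where a knockdown peak was called, and the lowest knockdown density over any control peak was 0.598. The median control density of these neighbours was 1.57 around C3, 1.86 around SLC2A1 and 1.56 around SGK223, against 4.91 for the C3 start domain. Nothing is read from this comparison.

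**Figure D4:**
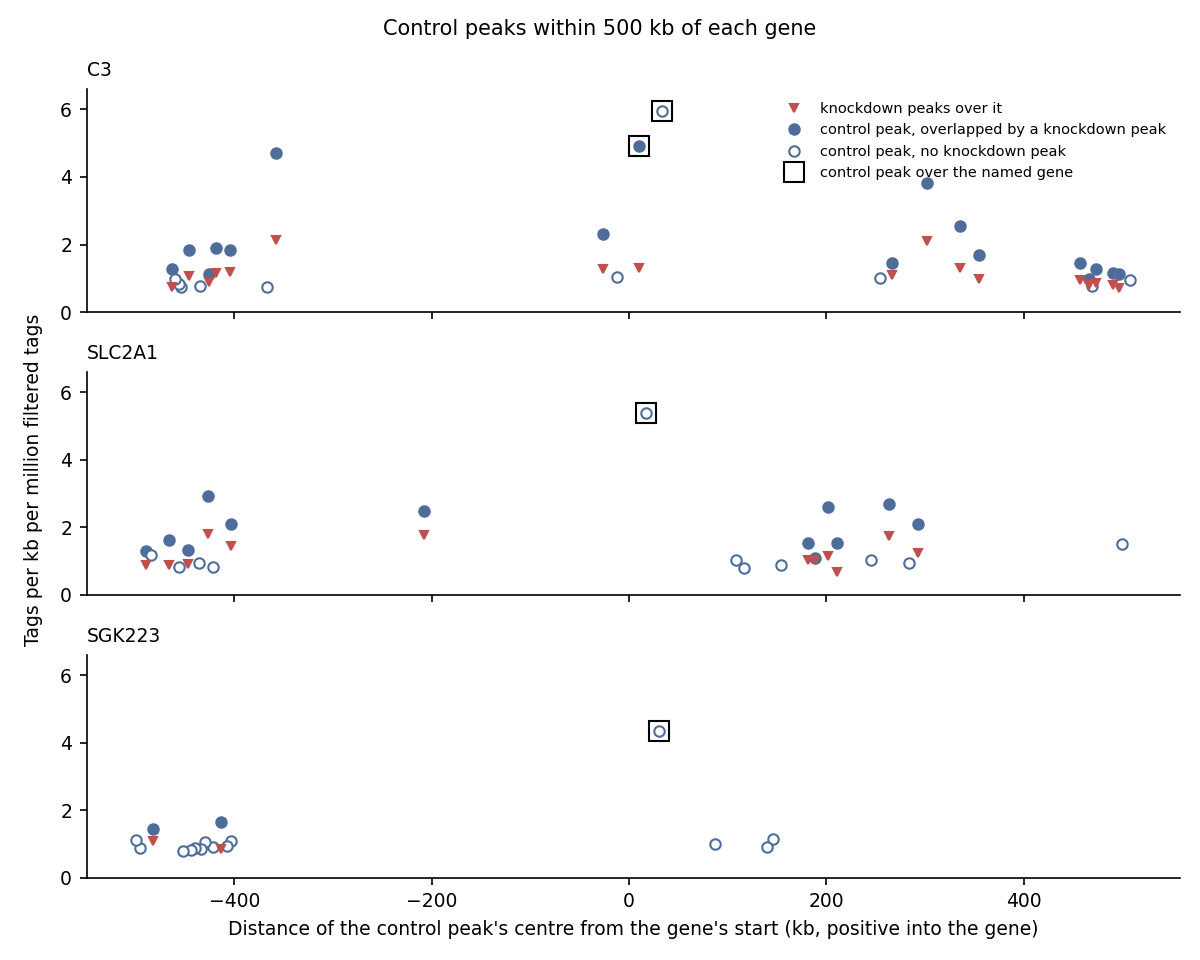
Tag density of control peaks within 500 kb of C3, SLC2A1 and SGK223 (circles, filled where a knockdown peak overlaps) and of the knockdown peaks over them (triangles), against distance from the gene's start in kb. Squares mark the control peaks over the named genes. The open circles inside squares, at 5.96, 5.39 and 4.33, are the densest control peaks of their panels and have no knockdown peak, while filled circles at lower densities have one. The genes were chosen for strong control domains without a knockdown peak, so this contrast follows largely from the choice.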

How the data were processed

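The submitters' processing notes name hg19, Bowtie 1.1.2 and FastQC 0.11.5. MACS 1.4.2 made the peak lists, per the file headers, with a p limit of 1e-05, a fragment size of 294 bp and 1 duplicate per position, from the merged replicates of each condition against merged input. Each list has 1 row per peak. The deposited tag counts are whole tags in a peak, not normalized. The deposited score is the peak's p-value as a negative log10, times 10, the deposited fold enrichment is a ratio over local input, and the deposited FDR is in percent. The shorter lists (1244 knockdown and 17856 control peaks) are the peaks at an FDR up to 5%.

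Per the labels' protocols, virus was collected 48 and 72 h after transfection and added with 4 µg/mL polybrene, and puromycin was used at 1 µg/mL. The sources used here do not say if replicates were separate cultures.

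Overlap of 1 bp defined shared peaks. Tag density was tags per kb per 1000000 filtered tags of the list. Where several knockdown peaks lay on a control peak, tags and widths were summed. Intervals are exact 95% intervals (Poisson, Clopper-Pearson), and none covers the spread between replicates. Those of densities and their ratios cover counting error only. Those of shares take each peak as a separate trial, although adjacent control peaks can lie under the same knockdown peak. The genes, spans and lists of peaks were chosen with earlier results of these data known. Named peaks were all those over the genes, the flank peaks, the densest neighbour of each gene (chosen after its values were seen) and the strongest control peaks without a knockdown peak. The strands of C3 and SGK223 are background knowledge. Values at other complement and glucose transport genes and at liver markers need hg19 gene coordinates and were not analysed here. Steps were tested on simulated data. Python 3.11.15, pandas 2.3.3, NumPy 2.4.6, SciPy 1.17.1 and matplotlib 3.10.9 were used.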

Additional observations from a re-analysis of the deposited data

How the results depend on the processing

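No paired analysis was possible because the replicates had been merged before peaks were called, so no replicate could be left out. SLC2A1 and SGK223 had 0% of their span covered in the knockdown under all settings run. This could not come out otherwise. Both were chosen for the absence of a knockdown peak, the filters only remove peaks, and no knockdown peak lay within the 10 kb added. At an FDR up to 5%, as in the shorter lists, knockdown peaks covered 0% of C3, and the knockdown peak nearest to the strongest domain was 249.8 kb away for C3 (0.370 kb in the full list) and 14225 kb for SGK223 (407 kb). The share of control peaks with a knockdown peak was then 6.35% in the whole list, 61.7% at fold enrichments of 26.94 or more, 28.6% around C3, 26.7% around SLC2A1 and 0% around SGK223, where knockdown length was 24.8%, 34.7% and 0% of control length (63.7%, 61.0% and 11.0% in the full lists). The flanks then held 0 knockdown peaks and 1 control peak, and 0 control peaks with a knockdown peak. With a fold enrichment of 5 or more, C3 was covered to 32.9%, the share in the whole list was 19.8%, knockdown length around C3 was 39.98% of control, and the flanks held 0 knockdown and 1 control peak, with 0 shared. A score of 100 or more gave 36.9% in the whole list and 1 knockdown flank peak. With 10 kb added on each side, 29.4% of C3 was covered in the knockdown, and 74.8%, 63.7% and 83.0% of C3, SLC2A1 and SGK223 in the control. Flanks of 100 kb held 7 control peaks and flanks of 25 kb 1 knockdown peak. Within 1 Mb of SGK223, knockdown length was 25.2% of control.

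At an overlap of 50% of the control peak the share in the whole list was 27.8%, and at 50% of both peaks it was 21.3%, or 80.9% at fold enrichments of 26.94 or more. Merging peaks within 3000 bp gave 48.6% in the whole list and a knockdown density over C3 of 1.23. Taking like peaks by tag density, tags or width in place of fold enrichment gave shares of 76.3%, 53.8% and 79.6%, against 93.6%. With all tags as depth, the knockdown peaks of C3, all over its start domain, had a density of 1.14. In the control the densities were then 4.78 for both C3 domains together (5.50 with filtered tags), 4.68 for SLC2A1 and 3.76 for SGK223. Over the bounds of the C3 start domain, the tags of the called knockdown peaks gave 1.19 with filtered tags. The share of control peaks at least as high was 0.0254% for the C3 end domain by fold enrichment, 0.215% by density, 0.447% by tags and 3.17% by width. For SLC2A1 these were 0.133%, 0.336%, 0.291% and 1.62%, and for SGK223 0.0905% by fold enrichment and 0.896% by density. The causes were not tested. Of 127 alternatives over 30 results, 75 stayed close to the value reported. Close meant inside its 95% interval where it was a share or density, and within 1.5 times of it where it was a count, length ratio, distance or median. For the covered share of a gene that interval took each base as a separate trial, so it is not a counting error. The 75 also include covered shares of 0% that no filter could change, so the number does not measure how stable the results were.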
